A study of Mus musculus with 38 samples.

Results

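Dermal papilla cells from nevus skin were compared between postnatal day 56 (P56) and postnatal day 30 (P30). The genes followed were the protein-coding genes outside chromosomes X and Y that reached 1 FPKM in at least 2 of the 4 mutant libraries, which were 11874 of the 21417 genes listed for the dermal papilla. FPKM counts sequenced fragments per length of transcript and per size of library, so levels of different genes can be set side by side. The rule left out 404 genes on X or Y, and 10 more had no assigned chromosome. Of the 11874 genes, 10675 reached 1 FPKM in all 4 libraries, 179 did so in both P30 libraries and neither P56 library, and 274 in both P56 libraries and neither P30 library. A gene of the last 2 kinds entered through the age at which it was high.

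The series holds 38 libraries of cells from mouse dorsal skin, 8 of them from the dermal papilla. Mutant mice carried an oncogenic *Nras* transgene under the tyrosinase promoter, which is active in pigment cells, and develop pigmented nevi over which hair keeps growing. Wild type mice served as controls. The 4 groups of 2 libraries were mutant P30, mutant P56, wild type P30 and wild type P56, with no treatment named in the labels. Strain and sex are not given in the labels, nor is the number of animals behind a library. Per the study's methods, RNA came from cells sorted by flow cytometry after enzymatic digestion of the skin. The methods name biological triplicates, whereas each dermal papilla group here holds 2 libraries. The markers of the papilla sort are not given in the sources used here, and 2 libraries per group were analysed here. The spread behind each p-value is that between libraries.

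The dermal papilla is a small cluster of specialised fibroblasts enclosed by the base of each hair follicle. It signals to the epithelial stem cells and progenitors above it, largely through WNT, BMP, FGF and IGF ligands and their secreted inhibitors, and it directs growth (anagen), rest (telogen) and the colour of the hair. In wild type skin most follicles grow at P30 and rest at P56. Senescent cells release a mixture of chemokines, cytokines, proteases and growth regulators that acts on their neighbours, and the nevus cells that lie beside the follicles are of that kind. The comparison asks how the papilla of nevus skin differs between an age at which normal follicles grow and one at which they rest.

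The mutant libraries carried the RNA of papilla cells. All 30 genes of the dermal papilla marker list reached 1 FPKM in at least 2 of the 4 libraries, among them *Wif1* (a secreted WNT inhibitor) with 5155 and 4203 FPKM at P30 and 3270.1 and 3481 at P56, *Alpl* (alkaline phosphatase, the classical papilla enzyme) with 990.0 and 875 FPKM at P30 and 243 and 228 at P56, and *Corin* (a protease that restrains agouti signalling) with 82.8 and 88.4 FPKM at P30 and 129 and 108 at P56. Markers of other cell types were present as well and moved with age. The 16 fibroblast markers summed to 3497 to 3727 FPKM at P30 and 7059 to 7166 at P56. The 15 melanocyte markers summed to 66.9 to 103 FPKM at P30 and 289.9 to 407 at P56, with *Gpr143* and *Oca2* under 1 FPKM in every mutant library. Much of this sum was *Ednrb* alone, with 35.5 and 49.7 FPKM at P30 and 319 and 140.0 at P56. *Ednrb* was also at 91.6 and 234 FPKM in wild type P30. The 12 mural cell markers summed to 384 to 386 and 670.2 to 1135 FPKM, and the 10 muscle markers to 8.4 to 11.7 and 40.6 to 155. Most of the mural sum was *Acta2*, with 294 and 293 FPKM at P30 and 1032 and 583 at P56. Mutant P56 replicate 2 stood apart by its 17 keratinocyte markers, which summed to 1752 FPKM against 214 in replicate 1 and 262 and 304 at P30. The 21 myeloid markers with values summed to 27.1 to 35.4 FPKM at P30 and 74.8 to 179 at P56, while *Adgre1*, *Cd163*, *Itgam*, *Mrc1* and *Ptprc* stayed under 1 FPKM throughout. Of the 15 endothelial markers, 7 were under 1 FPKM in all 4 libraries, *Cdh5* and *Vwf* included. In bulk RNA, a change in the number of cells of a type and a change in the RNA per cell cannot be told apart.

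**Figure D1:**
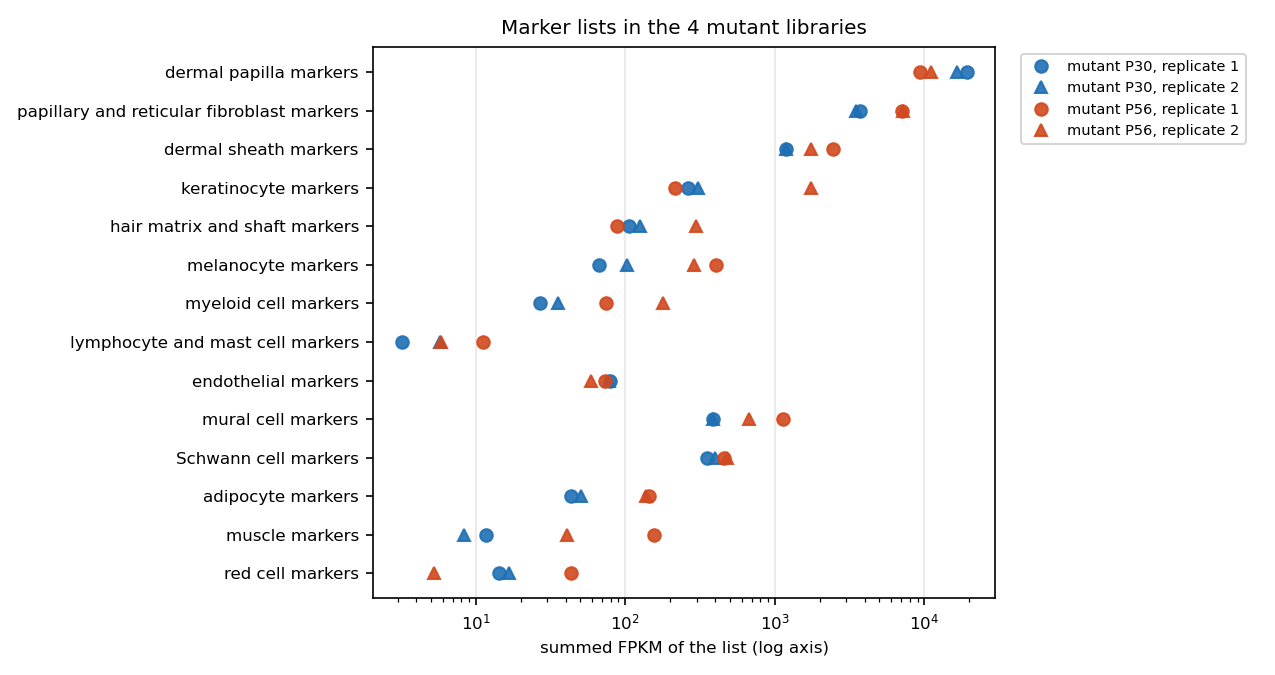
Summed FPKM (log axis) of each marker list in the 4 mutant libraries, circles for replicate 1 and triangles for replicate 2. Fibroblast, melanocyte, mural, adipocyte and muscle markers are higher in both P56 libraries (fibroblast markers 7059 and 7166 FPKM against 3727 and 3497), dermal papilla markers are lower in both, and keratinocyte markers are high in P56 replicate 2 only (1752 FPKM).

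The sexes of the libraries ran with age. *Xist*, the RNA of the inactive X chromosome, was at 20.4 and 23.9 FPKM in the mutant P30 libraries and at 0.02 and 0 in the mutant P56 libraries, whereas *Ddx3y*, a gene of the Y chromosome, was at 0 in both P30 libraries and at 46.8 and 38.8 in the P56 libraries. Wild type libraries ran the other way, with *Xist* at 0 at P30 and 22.4 and 22.7 at P56. In each genotype, age and sex therefore cannot be told apart, and a gene that moved the same way in both genotypes moved against the sexes in 1 of them. Between 12420 and 13205 genes per library reached 1 FPKM. Across the 11874 genes, log2 values of replicates correlated at 0.990 in mutant P30 and 0.957 in mutant P56, a description over genes that are not independent.

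The mutant papilla changed between the 2 ages mainly by gain. Of the 11874 genes, 507 rose and 172 fell at P56 (limma on log2(FPKM + 1), Benjamini-Hochberg adjusted p under 0.05 over all 13899 genes fitted, and at least 2-fold). Over all genes fitted, 3.91% were called higher and 1.39% lower, and the median difference was 0.04. The libraries of the 2 ages did not overlap in 6574 of the 11874 genes (55.4%), and in 54.4% of all genes fitted. Changes of at least 4-fold were found for 167 genes that rose and 23 that fell. Under quantile normalization the split was 432 higher and 268 lower, so that the share of rises went from 74.7% to 61.7%. The calls leaned on the 2 closely matched P30 libraries: when each mutant library was left out in turn, 93 (P30 replicate 1), 134 (P30 replicate 2), 436 (P56 replicate 1) and 476 (P56 replicate 2) genes were called, and 81 rises and 7 falls were called in all 4 of these fits. Without the filter on low values 411 were called. Differences below are P56 minus P30 on the log2(FPKM + 1) scale unless stated, and understate the ratio for genes of low FPKM.

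**Figure D2:**
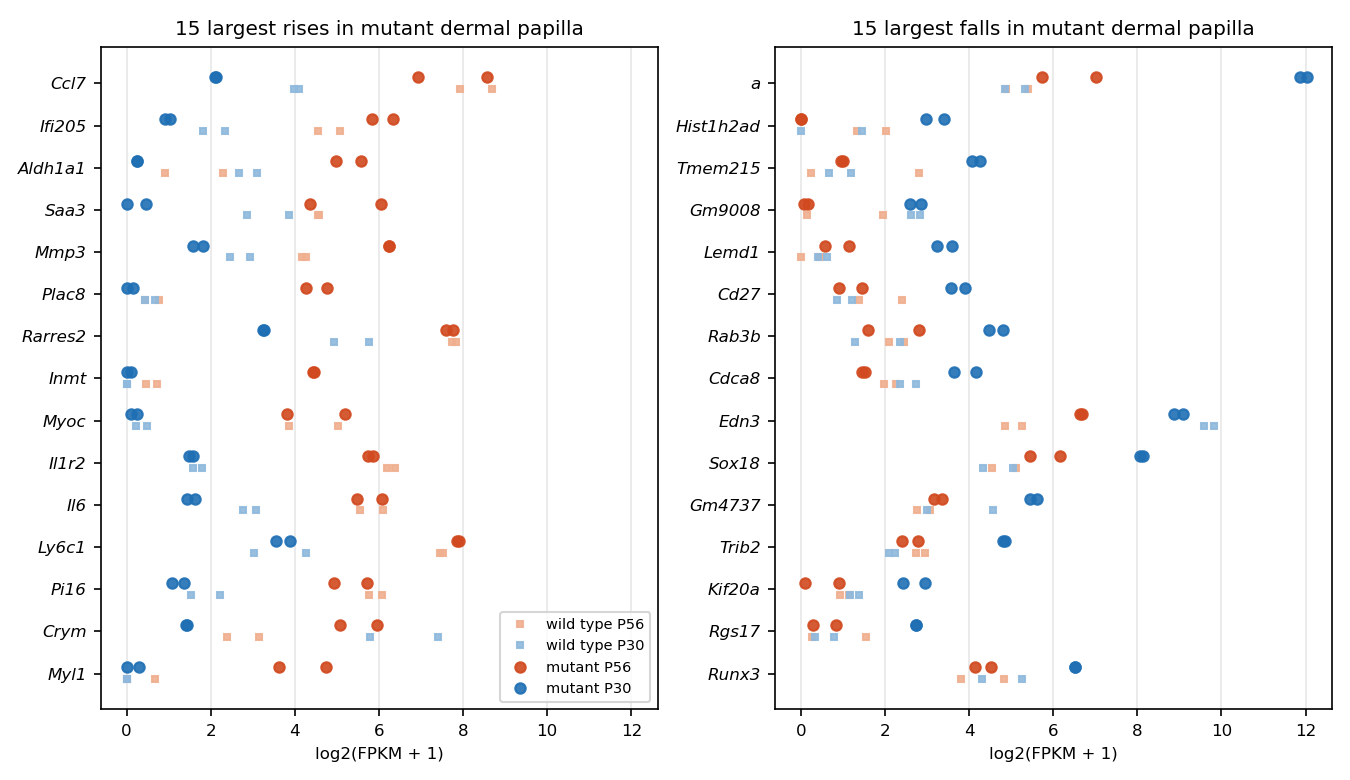
Levels, as log2(FPKM + 1), in all 8 libraries, of the 15 genes that rose most and the 15 that fell most in mutant papilla. Circles are mutant and squares wild type libraries, blue for P30 and red for P56. *Ccl7* goes from 3.36 and 3.33 FPKM to 376 and 121, and *a* from 4167 and 3757 to 51.8 and 128, while wild type *a* stays between 27.9 and 41.3 FPKM.

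The largest rise among called genes was that of *Ccl7* (ENSMUSG00000035373.2, chromosome 11, 82045712 to 82047525 on GRCm38), a chemokine that draws monocytes. It was measured at 3.36 and 3.33 FPKM at P30 and 376 and 121 at P56 (log2 difference 5.63 ± 0.45 (SE), adjusted p = 0.000193). *Il6* (ENSMUSG00000025746.11, chromosome 5, 30013114 to 30019981), the inflammatory cytokine, stood at 2.11 and 1.69 FPKM at P30 and 66.7 and 43.9 at P56 (log2 difference 4.25 ± 0.29 (SE), adjusted p = 7.46e-05). *Il1r2*, the decoy receptor that soaks up interleukin 1, was at 2.01 and 1.79 FPKM at P30 and 52.2 and 57.5 at P56 (log2 difference 4.27 ± 0.22 (SE), adjusted p = 1.94e-05). The ages did not overlap for any of these 3 genes, and the P30 libraries were close to each other. *Saa3*, a serum amyloid protein of the acute phase, was at 0 and 0.39 FPKM at P30 and 65.5 and 19.7 at P56, and *Rarres2*, which encodes the chemoattractant chemerin, at 8.42 and 8.63 FPKM at P30 and 215 and 191 at P56. *Mmp3* (stromelysin, a matrix protease) was at 2.01 and 2.52 FPKM at P30 and 74.1 and 74.3 at P56, with P56 libraries that were almost the same. The wild type papilla shared several of these rises: *Ccl7* was at 14.9 and 16.0 FPKM at P30 and 414 and 242 at P56 there, and *Il1r2* at 2.45 and 1.98 FPKM at P30 and 71.7 and 82.7 at P56. *Il6* rose in wild type too, from 5.77 and 7.44 to 67.6 and 45.6 FPKM. Of the 15 largest mutant rises, 9 were also called as rises in wild type.

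Also among the 15 largest rises was *Aldh1a1*, which oxidises retinaldehyde to retinoic acid, at 0.18 and 0.19 FPKM at P30 and 30.7 and 46.4 at P56 (log2 difference 5.03 ± 0.43 (SE), adjusted p = 0.000254). It shares much of its sequence with *Aldh1a7*, which was at 0.15 and 0.3 FPKM at P30 and 13.1 and 22.2 at P56, so how reads were divided between them is uncertain. *Inmt*, an N-methyltransferase, was at 0 and 0.08 FPKM at P30 and 21.0 and 20.4 at P56, whereas no wild type library exceeded 0.65 FPKM. *Plac8* behaved alike, with 0 and 0.12 FPKM at P30, 18.2 and 26.4 at P56 and at most 0.71 in wild type. *Crym*, which binds thyroid hormone, was at 1.73 and 1.67 FPKM at P30 and 32.4 and 60.9 at P56 but went the other way in wild type, from 54.5 and 169 to 7.83 and 4.23. *Myoc* (myocilin, a secreted glycoprotein), *Pi16* (a protease inhibitor of adventitial fibroblasts) and *Ly6c1* (a surface protein whose near copy *Ly6c2* makes its reads uncertain) rose by 4.33, 4.10 and 4.16. *Ifi205*, an interferon-inducible gene with near copies, rose by 5.10, and *Myl1*, a myosin light chain of skeletal muscle, by 4.04. All 15 of these rises were called in each of the 4 fits without 1 mutant library.

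The largest fall among called genes was that of *a* (ENSMUSG00000027596.10, chromosome 2, 154791402 to 155051012), the agouti gene, whose product is released by the papilla and switches neighbouring melanocytes from black to yellow pigment. Its level was 4167 and 3757 FPKM at P30 and 51.8 and 128 at P56 (log2 difference -5.58 ± 0.38 (SE), adjusted p = 7.46e-05), and 38.9 and 27.9 FPKM at P30 and 28.4 and 41.3 at P56 in wild type. Only the 2 mutant P30 libraries were high, and none of the other 6 exceeded 128 FPKM. Strain is not given in the labels, and its part in this pattern was not tested. *Sox18*, a transcription factor gene of the dermal papilla, showed the same shape on a smaller scale, with 281 and 266 FPKM at P30 and 42.6 and 70.8 at P56 (log2 difference -2.30 ± 0.32 (SE), adjusted p = 0.00396) and between 19.2 and 33.7 FPKM in the 4 wild type libraries. *Runx3*, another transcription factor gene, was at 90.1 and 90.0 FPKM at P30 and 22.1 and 16.7 at P56, and *Trib2*, a pseudokinase, at 26.9 and 27.8 FPKM at P30 and 5.86 and 4.30 at P56 with 3.27 to 6.74 FPKM in wild type. *Edn3* (ENSMUSG00000027524.9, chromosome 2, 174760619 to 174784042), the endothelin that supports melanocytes, differed from these: it was at 464 and 538 FPKM at P30 and 99.1 and 102 at P56 and at 762 and 898 FPKM at P30 and 27.9 and 37.4 at P56 in wild type, a fall in both genotypes.

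The remaining falls among the 15 were of lower level. *Cd27*, a receptor of the tumour necrosis factor receptor family, was at 10.9 and 14.0 FPKM at P30 and 1.75 and 0.87 at P56, *Rab3b*, a regulator of vesicle release, at 21.1 and 27.1 FPKM at P30 and 2.02 and 6.07 at P56, and *Rgs17*, a regulator of G protein signalling, at 5.69 and 5.64 FPKM at P30 and 0.22 and 0.8 at P56. *Tmem215* was at 15.8 and 18.1 FPKM at P30 and 1.01 and 0.94 at P56 and *Lemd1* at 8.51 and 11.1 FPKM at P30 and 1.20 and 0.49 at P56. *Cdca8* and *Kif20a* belong to the mitosis genes described further on. *Hist1h2ad*, a histone of a cluster of near-identical copies, fell by 3.20 on the log2 scale, and the gene models *Gm9008* and *Gm4737* by 2.60 and 2.26, and the reads of these 3 are uncertain. Of these falls, 5 of the 15 were called without mutant P30 replicate 1, the same number without P30 replicate 2, and 10 and 11 without P56 replicates 1 and 2. The 5 called in all 4 fits were *a*, *Lemd1*, *Cdca8*, *Edn3* and *Trib2*.

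The mutant P30 libraries were often the ones that stood apart. Of the 172 genes that fell, 137 (79.7%) had both mutant P30 libraries above all 6 other dermal papilla libraries, and of the 507 that rose, 282 (55.6%) had both below all 6. Over the 13899 genes fitted, whether called or not, these patterns were found in 6.62% and 10.6%. The calls themselves used the mutant libraries, so these shares describe the called genes and are no test.

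Secreted factors of senescent cells formed the functional list with the most rises. Of its 40 genes, 21 rose, none fell and 19 were not called, with a median difference of 1.43. The 21 held chemokines, interleukin signals, proteases and their inhibitors, and growth regulators. Besides *Ccl7*, *Il6* and *Mmp3*, *Ccl11* (eotaxin, which draws eosinophils) was at 0.23 and 0.38 FPKM at P30 and 19.4 and 18.3 at P56. *Cxcl12*, the ligand of CXCR4 and a regular product of dermal fibroblasts, was at 19.6 and 20.4 FPKM at P30 and 208 and 136 at P56 (log2 difference 3.01 ± 0.23 (SE), adjusted p = 0.000176), and *Cxcl9*, an interferon-induced chemokine, at 0.15 and 0.13 FPKM at P30 and 11.6 and 7.22 at P56. *Ccl2* spread widely at P56, with 520.0 and 123 FPKM against 49.2 and 56.4 at P30. *Il1rn*, the interleukin 1 receptor antagonist, was at 0.64 and 0.58 FPKM at P30 and 5.12 and 20.6 at P56, and *Tnfrsf11b* (osteoprotegerin, a decoy receptor) at 4.82 and 7.76 FPKM at P30 and 24.8 and 23.7 at P56. The other rises of the list ranged from 1.20 (*Ccl5*) to 2.99 (*Mmp13*). Genes of the list that were not called included *Fgf7*, *Hgf*, *Vegfa* and *Igfbp3*, with differences of -1.02, -0.57, 0.03 and 0.25. Without mutant P30 replicates 1 and 2, 8 and 9 of the 40 rose, and without P56 replicates 1 and 2, 14 and 18. Fibroblast, melanocyte and myeloid marker sums rose with the list, as given above, and their part in it was not tested.

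The stretches of 200 bases upstream of the start sites of *Il6* and *Cxcl1* are shown because these cytokine genes are known targets of NF-kB and rose here. They are RefSeq promoters on GRCm38.p6, at chr5:30012914-30013113, plus strand for *Il6* and chr5:90891045-90891244, plus strand for *Cxcl1*. Capitals mark an NF-kB motif in which the fifth base was left free, searched on both strands.
Il6: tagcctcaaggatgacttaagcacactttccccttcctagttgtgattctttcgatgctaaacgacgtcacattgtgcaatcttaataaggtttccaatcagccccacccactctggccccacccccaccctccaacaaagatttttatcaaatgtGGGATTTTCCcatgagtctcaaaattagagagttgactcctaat
Cxcl1: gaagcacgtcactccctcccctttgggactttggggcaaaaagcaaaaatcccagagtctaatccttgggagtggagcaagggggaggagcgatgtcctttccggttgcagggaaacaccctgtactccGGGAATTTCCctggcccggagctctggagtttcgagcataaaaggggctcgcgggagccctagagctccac
Of the 21 rising genes, 12 had promoters in the table, 16 in all, and 2 of these 16 (12.5%) held the motif in the 250 bases before the start, against 117 of all 32851 promoters (0.356%). Over the whole list, called or not, the motif was in 4 of 36 promoters (11.1%). Both promoters shown hold the motif, so they do not stand for the rising genes as a whole. A match describes the letters and is not a binding site. *Cxcl1*, a chemokine that draws neutrophils, was at 214 and 229.9 FPKM at P30 and 905 and 441 at P56 (log2 difference 1.51 ± 0.32 (SE), adjusted p = 0.0253).

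Matrix proteases gave rises and no falls. Of 27 matrix proteases and inhibitors, 10 rose and none fell, with a median of 0.70. *Mmp13* (collagenase 3) was at 5.41 and 8.60 FPKM at P30 and 64.6 and 58.4 at P56 (log2 difference 2.99 ± 0.32 (SE), adjusted p = 0.000936), and at most 1.02 FPKM in any wild type library. *Mmp2* (gelatinase A) was at 45.4 and 48.0 FPKM at P30 and 231 and 187 at P56, and *Mmp9* (gelatinase B) at 20.2 and 23.8 FPKM at P30 and 85.6 and 82.1 at P56 (log2 difference 1.89 ± 0.23 (SE), adjusted p = 0.00225). *Mmp10* reached 2.85 and 6.76 FPKM from 0.27 and 0.42, while all 4 wild type libraries were at 0. The plasminogen activators *Plat* and *Plau*, the inhibitor *Timp2*, *Mmp11* and *Adamtsl1* rose by 1.23 to 1.74. Without mutant P30 replicates 1 and 2 the 10 became 3 and 4, and without P56 replicates 1 and 2 they became 6 and 8. Of these rises, 6 also belong to the secreted factors (*Mmp3*, *Mmp13*, *Mmp10*, *Timp2*, *Plat* and *Plau*).

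Among 38 extracellular matrix genes, 8 rose and 1 fell, with a median of 0.35, and 5 rose without mutant P30 replicate 1. *Dcn* (decorin, a small leucine-rich proteoglycan that coats collagen fibrils) was at 74.7 and 96.0 FPKM at P30 and 1437 and 1262 at P56 (log2 difference 3.98 ± 0.21 (SE), adjusted p = 2.03e-05), *Lum* (lumican, of the same family) at 17.8 and 25.3 FPKM at P30 and 295 and 231 at P56 and *Ogn* (osteoglycin) at 11.4 and 13.9 FPKM at P30 and 121 and 89.6 at P56. *Has1*, a hyaluronan synthase, was at 3.95 and 5.39 FPKM at P30 and 108 and 39.6 at P56. *Mfap5*, *Lox* and *Postn* rose by 2.11, 1.91 and 1.56, and *Col16a1* fell by 1.18 on the log2 scale. Of 23 basement membrane genes, *Col13a1* rose by 1.38 and the rest were not called (median -0.28). *Dcn*, *Lum* and *Mfap5* are fibroblast markers too. Of the 16 fibroblast markers, 10 rose and none fell, with a median of 3.09, and *Ly6a* and *Cd34*, surface proteins of dermal fibroblast progenitors, rose by 3.51 and 3.64. This list gave 9 to 10 rises without any 1 mutant library. *Dpt* (dermatopontin) was at 17.7 and 19.1 FPKM at P30 and 173 and 107 at P56. In wild type it was at 8.8 and 7.5 and then at 146 and 164.

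The papilla's own markers gave few calls. Of the 30 dermal papilla markers, 2 fell and none rose, with a median of -0.33. The 2 were *Sox18* and *Trps1*, a zinc finger factor of hair follicle development, at 170.0 and 167 FPKM at P30 and 56.4 and 86.0 at P56 (log2 difference -1.26 ± 0.27 (SE), adjusted p = 0.0253). Without either mutant P30 replicate, neither was called. Several abundant markers were lower in both P56 libraries without passing the test: *Alpl* differed by -1.98 (adjusted p = 0.186), *Vcan* (versican, a proteoglycan of the papilla matrix) by -1.36 (adjusted p = 0.258) and *Crabp1*, a retinoic acid binding protein, was at 6059.9 and 4763 FPKM at P30 and 2190.3 and 3237 at P56 (adjusted p = 0.12). *Corin*, *Lef1* (a nuclear partner of beta-catenin), *Prom1* and *Sox2* differed by 0.46, 0.24, -0.36 and -0.66, none of them called. The fit pools the spread of all 8 libraries, and the wild type P56 libraries differed widely for these genes, with 27.6 and 298 FPKM for *Alpl* and 51.6 and 1598 for *Wif1*.

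The ligands through which the papilla instructs the follicle gave few calls in the mutant. The pooled spread bears on these as well, since the wild type P56 libraries differed widely for several. *Rspo2* was at 1.45 and 41.7 FPKM there, so the lack of a call does not show that a level was unchanged. None of the 11 WNT ligands and R-spondins was called (median 0.20). *Rspo3*, which amplifies WNT signals, was at 307 and 350.4 FPKM at P30 and 227 and 289.7 at P56, *Rspo2* at 208 and 224 FPKM at P30 and 96.9 and 98.4 at P56 (log2 difference -1.14 ± 0.96 (SE), adjusted p = 0.528) and *Rspo4* at 148 and 136 FPKM at P30 and 395 and 755 at P56 (log2 difference 1.93 ± 0.73 (SE), adjusted p = 0.16). *Rspo2* was thus lower and *Rspo4* higher in both P56 libraries without a call. *Wnt5a*, a ligand of noncanonical WNT signalling, was at 339 and 316 FPKM at P30 and 92.2 and 98.3 at P56 (log2 difference -1.77 ± 0.69 (SE), adjusted p = 0.171), so the ages did not overlap but the difference did not pass. Of 9 WNT antagonists, *Sfrp4* rose from 0.88 and 1.01 to 9.80 and 9.39 FPKM (adjusted p = 0.00661) and *Dkk2* from 13.2 and 9.39 to 30.8 and 27.8 (adjusted p = 0.0237). Neither was called without a mutant P30 replicate. *Wif1* and *Sostdc1*, the most abundant antagonists, differed by -0.46 and -1.09. Of 15 WNT receptors, *Lgr5* rose by 1.23 and *Fzd10* fell by 1.15 on the log2 scale. The 11 WNT target genes were without a call (median 0.36), with *Nkd2* at 109 and 129 FPKM at P30 and 133 and 151 at P56 and *Lef1* at 70.8 and 91.7 FPKM at P30 and 78.7 and 115 at P56.

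BMP signals keep stem cells at rest, and antagonists such as noggin release them. Of 15 BMP and TGF-beta ligands, 2 rose: *Gdf15*, a stress-induced member of the family, from 2.60 and 2.43 to 12.1 and 10.2 FPKM, and *Inhbb*, an activin subunit, from 0.61 and 1.06 to 3.62 and 5.93. *Bmp4* was at 186 and 220.2 FPKM at P30 and 216 and 204 at P56 (difference 0.05, below 0 under quantile normalization), and *Bmp6* was at 27.1 and 28.6 FPKM at P30 and 14.0 and 20.2 at P56. *Inhba*, the other activin subunit, was higher in both P56 libraries at 283 and 321 FPKM at P30 and 554 and 692 at P56 (adjusted p = 0.248). Of 15 BMP and activin antagonists, 3 rose, namely *Fstl3* (1.36), *Smoc2* (1.36) and *Nbl1* (1.01), while *Nog* (noggin) was at 15.8 and 14.3 FPKM at P30 and 40.7 and 22.8 at P56 without a call. The 10 BMP target genes stayed together near 0, with a median of 0.10 and differences from -0.30 (*Hey1*) to 0.84 (*Smad7*). *Id3* was at 1518 and 1399 FPKM at P30 and 1569.9 and 1484 at P56 and *Id2* at 625 and 705 FPKM at P30 and 583 and 587 at P56. Without mutant P30 replicate 1, no ligand or antagonist of this family was called.

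The FGF ligands gave no call among 8 genes (median -0.52). *Fgf7* and *Fgf10*, which the papilla sends to the hair germ, were lower in both P56 libraries, at 881 and 831 FPKM at P30 and 351 and 504 at P56 (log2 difference -1.02 ± 0.37 (SE), adjusted p = 0.144) and 121 and 131 FPKM at P30 and 77.0 and 96.0 at P56 (log2 difference -0.55 ± 0.52 (SE), adjusted p = 0.583). The pooled spread of *Fgf10* includes wild type P56 libraries at 7.43 and 34.7 FPKM. Of 15 FGF receptors and feedback genes, the receptors *Fgfr1* and *Fgfr2* fell, *Fgfr1* from 954 and 854 to 279 and 305 FPKM and *Fgfr2* from 182 and 192 to 94.1 and 79.2. The feedback inhibitors *Dusp4* and *Spry1* rose by 1.36 and 1.33. None of these 4 was called without a mutant P30 replicate. Among 12 IGF ligands and binding proteins, *Igfbp6*, which holds back IGF2, was at 6.99 and 9.06 FPKM at P30 and 149 and 112 at P56 (log2 difference 3.86 ± 0.28 (SE), adjusted p = 0.000118) and *Igf2* at 2.40 and 1.94 FPKM at P30 and 10.4 and 13.9 at P56 (log2 difference 2.04 ± 0.25 (SE), adjusted p = 0.00207), whereas *Igfbp5* fell by 1.35 on the log2 scale. *Igf1*, a growth factor of the papilla, was at 16.3 and 24.3 FPKM at P30 and 46.5 and 60.5 at P56 (adjusted p = 0.0576).

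Of 32 other growth factor ligands, 7 rose and 1 fell (median 0.20). *Edn3* was the fall. *Wisp2*, a matricellular protein of the CCN family, was at 0.31 and 0.41 FPKM at P30 and 12.9 and 11.6 at P56 (log2 difference 3.28 ± 0.38 (SE), adjusted p = 0.00156), and the axon guidance ligand *Sema3c* and the vasoconstrictor *Edn1* rose by 1.83 and 1.54. *Angptl4*, *Pdgfd*, *Vegfc* and *Pdgfc* rose by 1.27 to 1.53. The count of rises was 1 without either P30 replicate and 3 and 5 without P56 replicates 1 and 2. The 12 Hedgehog and 13 Notch pathway genes gave no call (medians -0.59 and -0.36). *Hhip*, the Hedgehog decoy receptor, was at 1126 and 1040.3 FPKM at P30 and 477 and 540.3 at P56 (adjusted p = 0.65), *Ptch1*, the receptor and a target of the pathway, at 68.0 and 68.3 FPKM at P30 and 33.9 and 26.5 at P56 (adjusted p = 0.253), and the Notch targets *Hes1* and *Hey2* were at 38.6 and 47.8 FPKM at P30 and 116 and 75.5 at P56 and 80.9 and 89.1 FPKM at P30 and 36.8 and 41.5 at P56. The pooled spread of *Hhip* includes wild type P56 libraries at 8.58 and 374 FPKM.

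**Figure D3:**
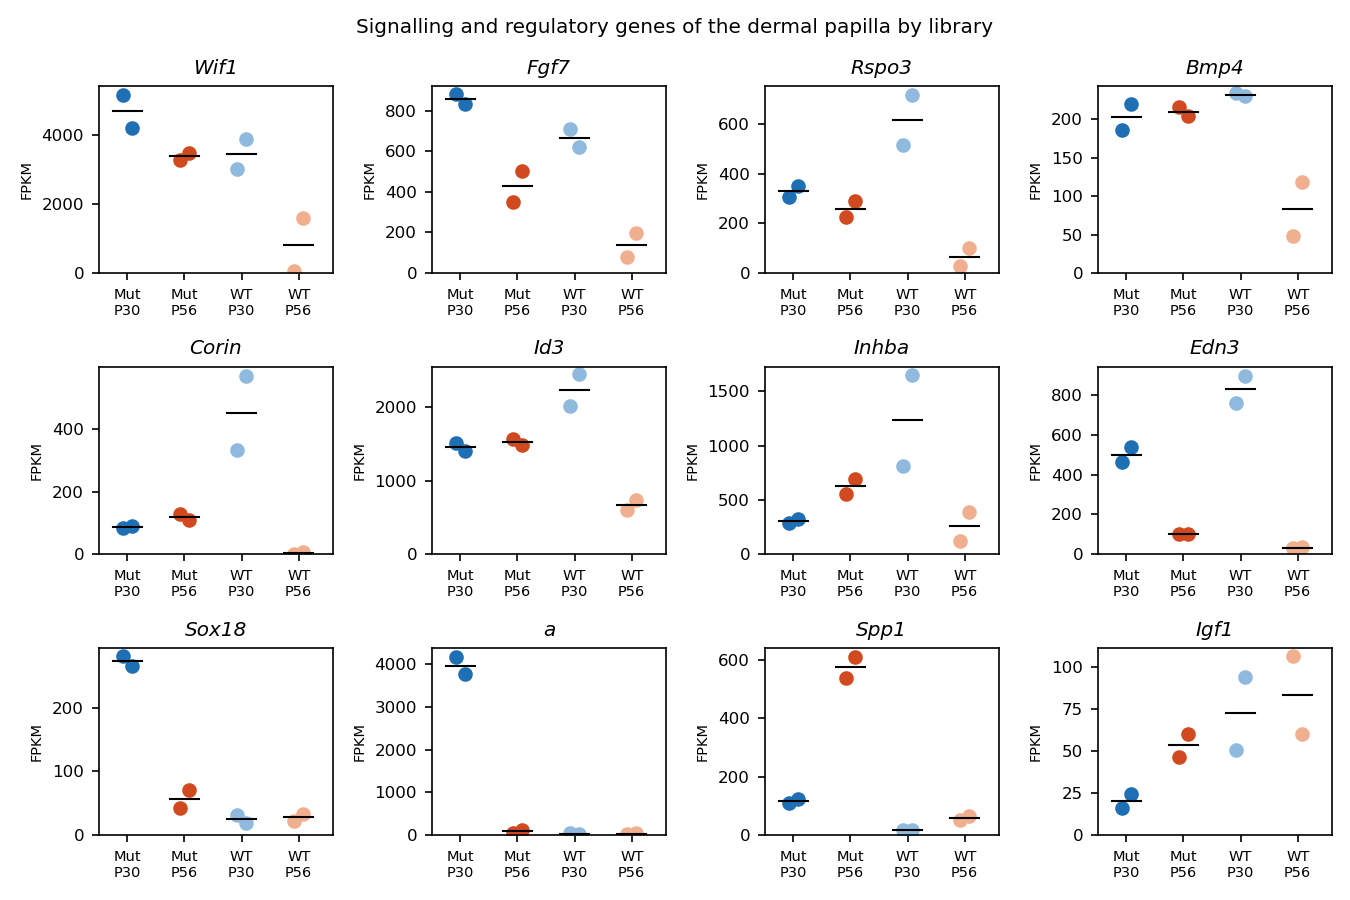
Level in FPKM of 12 signalling and regulatory genes in each library (points) with the group mean (black line), each panel from 0. In mutant papilla *Bmp4*, *Id3* and *Corin* at P56 lie at or above the lower P30 library whereas wild type levels drop (*Id3* 2012 and 2457 to 598 and 734 FPKM), *Sox18* and *a* are high in mutant P30 only, and *Spp1* is highest in mutant P56 (539 and 611 FPKM).

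Osteopontin, the secreted ligand of CD44 and integrins encoded by *Spp1* (ENSMUSG00000029304.14, chromosome 5, 104435118 to 104441050), rose in the mutant papilla from 110.0 and 123 to 539 and 611 FPKM (log2 difference 2.29 ± 0.20 (SE), adjusted p = 0.000254), called in all 4 fits without 1 mutant library. The wild type papilla rose too, from 17.0 and 17.2 to 50.3 and 66.8. The difference between the 2 rises was not called (0.59 ± 0.28 (SE), adjusted p = 0.198), which does not show that they were equal. None of 8 osteopontin receptors was called, though all 8 differences were above 0 (median 0.35). *Cd44* was at 55.0 and 54.2 FPKM at P30 and 75.1 and 68.0 at P56 and *Itgb1* at 146 and 158 FPKM at P30 and 191 and 157 at P56. Under quantile normalization the difference of *Itgb1* was below 0. *Nras* was at 19.7 and 24.0 FPKM at P30 and 25.2 and 23.6 at P56 (log2 difference 0.16 ± 0.20 (SE), adjusted p = 0.697). The sources used here do not say whether reads of the transgene count toward *Nras*.

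Among genes of cell division all calls were falls. Of 35 mitosis genes, 18 fell and none rose, with a median of -1.20, and 34 of the 35 differences were below 0. Levels were low at both ages. *Cdca8* (borealin, of the chromosomal passenger complex) was at 11.4 and 16.8 FPKM at P30 and 1.73 and 1.90 at P56 (log2 difference -2.40 ± 0.29 (SE), adjusted p = 0.00168). The mitotic cyclins *Ccnb1* and *Ccnb2* were at 13.4 and 14.5 FPKM at P30 and 3.43 and 3.50 at P56 and 15.3 and 22.4 FPKM at P30 and 3.48 and 6.77 at P56, and *Kif20a*, a kinesin of cytokinesis, at 4.43 and 6.79 FPKM at P30 and 0.88 and 0.07 at P56. *Mki67*, the usual proliferation marker, was at 1.42 and 1.50 FPKM at P30 and 0.34 and 0.32 at P56 (adjusted p = 0.0877) and not called. In wild type, *Ccnb1* fell (difference -1.01) and the other 34 genes were not called (median -0.01). The count of falls rested on the spread between libraries: 1 mitosis gene was called without either mutant P30 replicate, and 8 without either P56 replicate. That gene was *Cdca8* in both. Of 34 DNA replication genes, 5 fell and none rose (median -0.72): *Uhrf1*, *Mcm5*, *Cdc45*, *Mcm2* and *Exo1*, by 1.94, 1.80, 1.65, 1.44 and 1.32 on the log2 scale. None of the 5 was called without a mutant P30 replicate, and 1 without either P56 replicate. *Mcm5*, a subunit of the replicative helicase, was at 10.6 and 12.9 FPKM at P30 and 2.08 and 3.32 at P56. Hair matrix and shaft markers, from dividing and differentiating epithelium, summed to 106 and 126 FPKM at P30 and 88.5 and 296 at P56. Of 19 such genes, *Crym* alone was called.

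Promoters of mitosis genes often carry CCAAT boxes and a cell cycle homology region (CHR). Those of 4 genes are shown because all of them fell, each 200 bases before the start, RefSeq, GRCm38.p6: *Ccnb1* at chr13:100786487-100786686, minus strand, *Ccnb2* at chr9:70421555-70421754, minus strand, *Cdc20* at chr4:118437344-118437543, minus strand and *Cdca8* at chr4:124936918-124937117, minus strand. Capitals mark CCAAT and the CHR letters TTTGAA on either strand.
Ccnb1: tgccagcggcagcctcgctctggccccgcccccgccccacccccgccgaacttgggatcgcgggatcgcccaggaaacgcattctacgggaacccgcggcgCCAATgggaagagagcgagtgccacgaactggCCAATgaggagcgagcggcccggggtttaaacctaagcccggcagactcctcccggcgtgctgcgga
Ccnb2: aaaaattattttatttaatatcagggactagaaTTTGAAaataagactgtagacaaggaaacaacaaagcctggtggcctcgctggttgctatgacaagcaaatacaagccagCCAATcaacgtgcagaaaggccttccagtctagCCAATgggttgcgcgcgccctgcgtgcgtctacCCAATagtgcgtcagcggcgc
Cdc20: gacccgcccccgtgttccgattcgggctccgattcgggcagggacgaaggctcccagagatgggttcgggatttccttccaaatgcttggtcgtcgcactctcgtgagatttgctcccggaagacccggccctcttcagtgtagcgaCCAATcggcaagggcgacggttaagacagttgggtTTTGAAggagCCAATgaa
Cdca8: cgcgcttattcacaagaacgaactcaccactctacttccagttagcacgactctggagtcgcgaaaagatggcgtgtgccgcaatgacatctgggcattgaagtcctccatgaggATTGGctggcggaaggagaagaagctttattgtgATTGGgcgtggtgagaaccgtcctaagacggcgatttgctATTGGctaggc
*Ccnb2* and *Cdca8* hold 3 CCAAT letters each in this window, *Ccnb1* and *Cdc20* 2 each, and TTTGAA occurs in *Ccnb2* and *Cdc20*. Of the 18 genes that fell, 15 had a promoter in the table. In the 250 bases before the start, 12 of the 15 (80%) held CCAAT and 5 (33.3%) held both motifs, against 33.8% and 5.55% of all 32851 promoters. Over the whole list, called or not, 22 of 31 promoters (71%) held CCAAT. *Cdc20*, an activator of the ubiquitin ligase that ends mitosis, was at 17.9 and 24.7 FPKM at P30 and 8.35 and 4.10 at P56.

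Among 21 cell cycle inhibitors, *Cdkn1a* and *Cdkn1b*, which encode p21 and p27, rose and none fell (median 0.16). *Cdkn1a* was at 68.2 and 101 FPKM at P30 and 276 and 179 at P56 (log2 difference 1.41 ± 0.30 (SE), adjusted p = 0.0261) and *Cdkn1b* at 3.40 and 5.77 FPKM at P30 and 17.3 and 9.98 at P56 (log2 difference 1.38 ± 0.33 (SE), adjusted p = 0.0414), and neither was called without mutant P30 replicate 1, P30 replicate 2 or P56 replicate 1. In wild type *Cdkn1a* rose further, to 1323 and 869.6 FPKM. *Cdkn2b* (p15) was at 4.63 and 7.38 FPKM at P30 and 22.9 and 11.0 at P56 (adjusted p = 0.0741). *Cdkn2a*, the p16 and ARF locus, was listed at 0 and 0.1 FPKM at P30 and 0.18 and 0 at P56, below the level for inclusion.

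Of 17 antigen presentation genes, 4 rose and none fell, and 13 were not called (median 1.02), with *B2m* (the invariant light chain) at 949 and 994 FPKM at P30 and 3123 and 3653 at P56 (log2 difference 1.80 ± 0.21 (SE), adjusted p = 0.00168) and *H2-D1* and *H2-K1* (heavy chains whose near-identical copies make reads uncertain) at 248 and 275 FPKM at P30 and 832 and 761 at P56 and 282 and 272 FPKM at P30 and 598 and 529.9 at P56. *Psmb8*, a subunit of the immunoproteasome, rose by 1.23. Of 19 interferon response genes, *Gbp2*, *Xaf1* and *Ifit3* rose by 2.18, 1.64 and 1.62 (median 0.70), and 13 of the same 19 rose in wild type. Without mutant P30 replicates 1 and 2, 1 and 2 of the presentation genes and 0 and 1 of the interferon genes were called, and without P56 replicate 2 the interferon count was 1. Immediate early and heat shock genes, which respond to tissue dissociation, split: of 27, *Fosl1*, *Hspb1* and *Atf3* rose by 2.52, 2.45 and 1.63, and *Fos* and *Jun* fell by 1.99 and 1.44 on the log2 scale. *Fos* was at 7647 and 6441 FPKM at P30 and 1973 and 1590.5 at P56. Without mutant P30 replicate 1 none of these 5 was called, and without P56 replicate 2 the rises became 6.

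Markers of other cell types gave calls as well, nearly all of them rises. *Dct* and *Tyr*, enzymes of melanin synthesis, were at 3.06 and 5.42 FPKM at P30 and 32.6 and 53.1 at P56 and 0.91 and 0.58 FPKM at P30 and 3.20 and 7.11 at P56 (adjusted p = 0.0148 and 0.0186), and of 13 melanocyte markers 5 rose and *Trpm1* fell. *Ednrb*, the receptor for the *Edn3* product, was at 35.5 and 49.7 FPKM at P30 and 319 and 140.0 at P56. Without mutant P30 replicate 1 or 2 none of the 5 rises was called, and without P56 replicates 1 and 2 the counts were 3 and 1. *Tyr* did not exceed 0.03 FPKM in wild type. *Tyrp1*, another melanocyte marker, was at 0.97 and 1.96 FPKM at P30 and 3.19 and 11.2 at P56 in mutant. Unlike *Tyr*, it was higher in wild type P56 than in mutant P56, with 18.5 and 23.6 FPKM. Of 8 muscle markers, *Myl1*, *Ckm* and *Pvalb* rose, 1 without either P30 replicate and 6 without P56 replicate 2. Of 14 keratinocyte markers *Lgr5* rose, and 9 rose without mutant P56 replicate 1, whose removal leaves the library with high keratinocyte RNA. Rises were also called for *Abi3bp* and *Acta2* among 12 dermal sheath markers, *Acta2* among 9 mural markers, *Gpnmb* and *Csf1r* among 12 myeloid markers, *Cldn5* and *Tek* among 5 endothelial markers, *Fabp4* and *Lpl* among 5 adipocyte markers, and *Pmp22* among 10 Schwann cell markers. The other 9 Schwann cell markers differed below 0 without a call (list median -0.40). Levels of *Cldn5*, *Tek* and *Csf1r* were low, at most 0.47 FPKM at P30 and at most 2.81 at P56. The 15 endothelial markers together summed to less at P56, with 78.9 and 78.1 FPKM at P30 and 72.7 and 58.8 at P56. No call was made among 4 lymphocyte and mast cell markers or 3 red cell markers. Among these, *Mcpt4*, *Cma1*, *Hbb-bs* and *Hba-a2* differed by 0.54, 0.46, 0.12 and -0.08, each with a sign that turned when 1 library was left out.

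Lists of metabolism and the clock gave few calls. None of 20 glycolysis genes was called (median 0.16), with *Aldoa* at 229.7 and 242 FPKM at P30 and 333 and 319 at P56 and *Ldha* at 526 and 538 FPKM at P30 and 529 and 464 at P56. Of 21 cholesterol synthesis genes *Dhcr7*, the last enzyme of the pathway, fell from 52.6 and 50.6 to 18.5 and 13.7 FPKM (list median -0.63). Of 19 steroid and retinoid genes, 2 rose, *Aldh1a1* the more (list median -0.20). Of 17 clock genes, *Nfil3*, a repressor in the clock output, rose by 1.18. Neither *Dhcr7* nor *Nfil3* was called without a mutant P30 replicate.

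**Figure D4:**
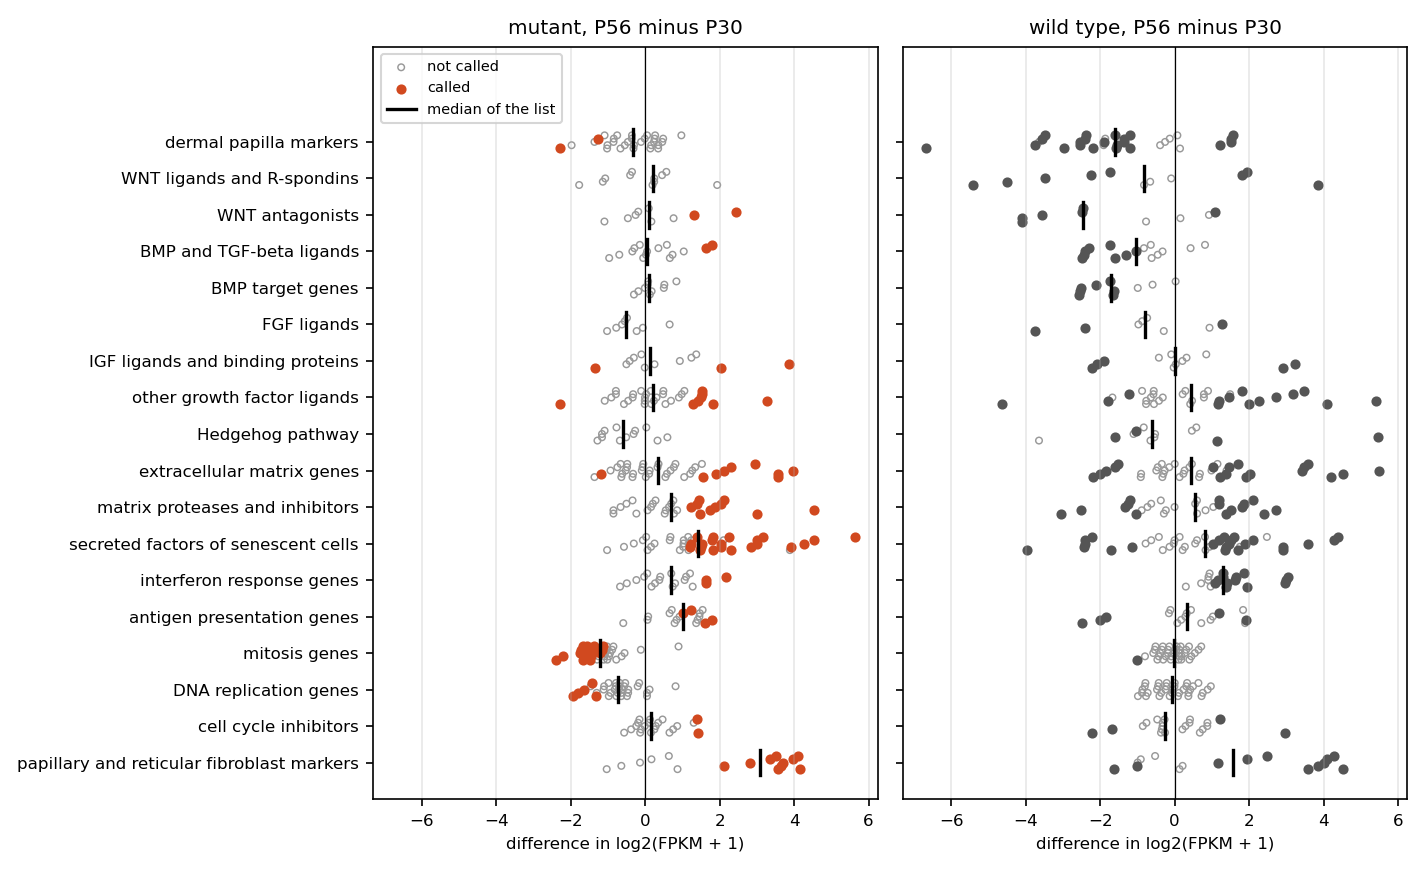
Difference in log2(FPKM + 1), P56 minus P30, of each member of 18 gene lists in mutant (left) and wild type (right) papilla. Filled points are called (adjusted p under 0.05 and at least 2-fold), open points are not, and the black bar is the list's median. Medians are -0.33 and -1.60 for dermal papilla markers, 0.10 and -1.70 for BMP target genes, and -1.20 and -0.01 for mitosis genes.

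The wild type papilla was compared between the same ages, from follicles that grow to follicles that rest. It is not matched in sex: the mutant libraries go from female to male between P30 and P56 and the wild type libraries from male to female, so that sex runs with every difference between the genotypes' changes given below and cannot be told apart from it. There 1071 of the 11874 genes rose and 1290 fell (over all genes fitted, 10.2% and 11% were called). Of the 507 mutant rises, 194 (38.3%) were also wild type rises, which are 18.1% of the wild type list, and 33 of the 172 mutant falls (19.2%) were wild type falls (2.6%). Opposite calls were made for 95 genes that rose in mutant and fell in wild type and for 13 that did the reverse. A total of 2026 genes were called in wild type and not in mutant. Wild type P56 libraries carried more Schwann cell and smooth muscle RNA than any mutant library, with *Sox10* at 215 and 55.3 FPKM and *Myh11* at 249 and 221, against at most 6.32 and 3.89 in mutant papilla, and their part in the differences was not tested.

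The test of the difference between the 2 changes (mutant change minus wild type change) called 938 of the 11874 genes above 0 and 518 below (7.74% and 5.07% of all genes fitted). Median ratio scaling and quantile normalization, which shift the median difference by -0.144 and -0.134, gave 759 above and 684 below (52.6% above, against 64.4%) and 792 and 685 (53.6%). The total of 1456 became 421 and 566 without mutant P30 replicates 1 and 2, 680 without wild type P30 replicate 2 and 942 without mutant P56 replicate 2. Of the 507 mutant rises, 219 also exceeded the wild type change in this test and 19 fell short of it. Of the 172 falls, 59 lay below the wild type change and 1 above. The same mutant change enters both calls, so these counts describe the called genes and are no test.

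Dermal papilla markers gave more calls in wild type than in mutant. In wild type, 18 of the 30 fell and 4 rose (11 and 2 without wild type P30 replicate 2, 12 and 1 without its replicate 1), against 2 falls in mutant. The difference was called above 0 for 8 of the 30 (*Corin*, *Rspo3*, *Fgf10*, *Zic1*, *Hey1*, *Scube3*, *Lef1* and *Itga9*) and below 0 for *Sox18*. *Corin* went from 332 and 570.1 to 1.30 and 6.86 FPKM in wild type and from 82.8 and 88.4 to 129 and 108 in mutant (difference 7.14 ± 0.68, adjusted p = 0.000407). *Rspo3* went from 515 and 719 to 28.4 and 101 in wild type, against 307 and 350.4 and 227 and 289.7 in mutant. The count of 8 became 2 without wild type P30 replicate 2 or mutant P30 replicate 1, 3 without mutant P30 replicate 2, 5 without mutant P56 replicate 2 and 18 without wild type P56 replicate 2. The median difference was 0.78, and 0.05 without wild type P56 replicate 1, when 8 were above 0 and 3 below. The remaining 21 of the 30 were not called. The summed level of the list also fell in mutant papilla, from 19173 and 16484 FPKM to 9356 and 11160.

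Of the 10 BMP target genes, 7 fell in wild type and none was called in mutant, and the difference was called above 0 for 8 of the 10 (median 1.99). *Id1*, an inhibitor of differentiation factors, went from 352 and 402 to 83.7 and 49.6 FPKM in wild type and from 174 and 213 to 159 and 277 in mutant (difference 2.65, adjusted p = 0.00543), and *Bambi*, a decoy receptor induced by BMP, gave a difference of 2.62 (adjusted p = 0.00302). The count was 8 under both scaling alternatives. Leaving out mutant P30 replicate 1 gave 4, and leaving out replicate 2 of mutant P30, mutant P56 or wild type P30 gave 5. Markers of other cell types moved with these lists. Of 19 hair matrix and shaft markers, 17 fell in wild type (median -2.57), and the difference was called above 0 for 6. Of 12 dermal sheath markers, 11 rose in wild type (median 3.66), and the difference was called below 0 for 8. Their part in the papilla and BMP results was not tested. Of the 15 BMP and TGF-beta ligands, 5 gave differences called above 0 (*Inhba*, *Inhbb*, *Tgfb1*, *Tgfb3* and *Inha*). The 5 became 3 under median ratio scaling or without mutant P56 replicate 1, 1 without either mutant P30 replicate, 10 without wild type P56 replicate 2, and 2 without any 1 of the other 4 libraries. *Inhba* fell in wild type from 815 and 1648 to 122 and 389.5 FPKM. *Sfrp1*, a WNT antagonist, fell from 685 and 1052 to 24.9 and 93.3 FPKM in wild type and went from 282 and 254 to 267 and 306 in mutant (difference 4.20, adjusted p = 0.00513).

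Calls on mitosis genes went the other way. For 9 of the 35 the mutant change was called below the wild type change and for none above (median -1.21). Under median ratio scaling and quantile normalization 16 did, while no gene did without mutant P30 replicate 2, only 1 without wild type P30 replicate 2, only 2 without mutant P30 replicate 1 and only 4 without wild type P56 replicate 1. Of 34 DNA replication genes, 5 were called below 0 (median -0.75). None was called without mutant P30 replicate 1 or 2 or wild type P30 replicate 2, and the count was 1 without wild type P56 replicate 1, 2 without mutant P56 replicate 2 and 3 without wild type P30 replicate 1 or mutant P56 replicate 1. It was 8 under median ratio scaling or without wild type P56 replicate 2. Of the 40 secreted factors of senescent cells, 16 rose and 7 fell in wild type, and the difference was called above 0 for 10 and below 0 for 3. The 10 became 5 and 6 without mutant P30 replicates 1 and 2. The 10 included *Mmp3*, *Cxcl12*, *Mmp13*, *Tnfrsf11b* and *Il1rn*, and *Ccl7*, *Il6* and *Ccl11* were not among them (adjusted p = 0.192, 0.057 and 0.581). Of the 16 fibroblast markers, 9 rose and 2 fell in wild type. *Mgp* (matrix Gla protein, an inhibitor of calcification) rose from 83.7 and 84.0 to 1303 and 916 FPKM in mutant and went from 190.4 and 207 to 99.4 and 99.3 in wild type (difference 4.68 ± 0.29, adjusted p = 4.67e-05).

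**Figure D5:**
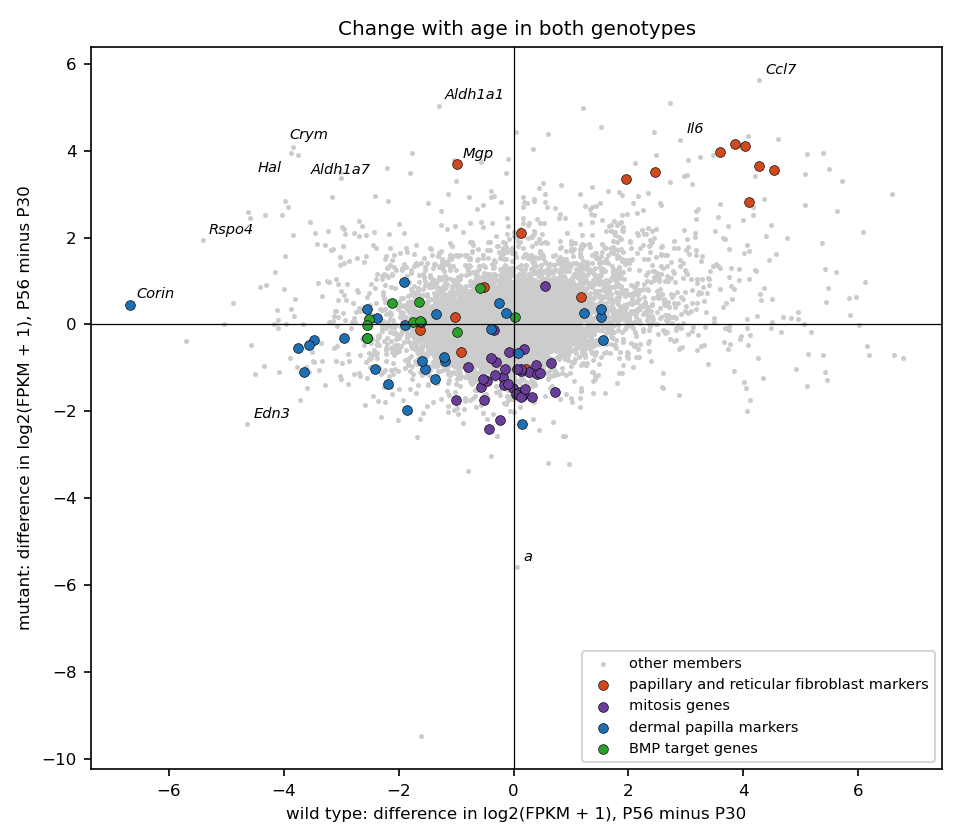
Difference in log2(FPKM + 1), P56 minus P30, of all 11874 genes in mutant (vertical axis) against wild type (horizontal axis), with 4 lists in colour. Many fibroblast markers lie at the upper right, most BMP target genes and many dermal papilla markers at the left near 0 on the mutant axis, and 34 of 35 mitosis genes below 0 on the mutant axis. *a* lies at -5.58 in mutant and 0.06 in wild type.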

How the data were processed

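The authors aligned reads to the mouse genome (GRCm38, mm10) using STAR 2.4.2 and deposited FPKM values per gene from RSEM. The table holds no read counts, so depth is unknown, and the study's own count-based test was not used here. Date-like symbols (25 genes) were restored, and positions came from GENCODE vM21 on the same build, which matched 21301 identifiers. Using limma 3.58.1 (R 4.3.3), 4 group means over the 8 dermal papilla libraries were fitted to log2(FPKM + 1), with a variance trend. P-values were adjusted over 13899 genes, protein-coding or lncRNA, that reached 1 FPKM in 2 or more of the libraries. A gene was called at adjusted p under 0.05 and 2-fold or more, two-sided. The script was tested on simulated data. Named genes were the 15 largest rises and falls among called genes with a mean of 5 FPKM or more at the higher age and no overlap between ages, up to 4 called genes per list (or the 2 most abundant where none was called), the 5 largest differences between genotypes in each direction, and *Nras*, *Spp1*, *Cd44*, *Mmp9*, *Cdkn2a*, *Cdkn2b*, *Mki67*, *Tyr*, *Dct*, *Alpl*, *Prom1*, *Corin*, *Sox2*, *Sox18*, *Vcan*, *Lef1*, *Rspo2*, *Rspo3*, *Wif1*, *Bmp4*, *Bmp6*, *Nog*, *Fgf7*, *Fgf10*, *Igf1* and *Hgf*. Any other gene given was chosen after its values were seen, as were the promoters shown. The genes followed, the 42 lists (794 genes) and the rules were chosen with earlier results of these data known. Results for some genes are not reported here.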

Additional observations from a re-analysis of the deposited data

Results flagged for a closer look

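The 9 genes below stood out because their change with age differed between mutant and wild type papilla in the direct test of that difference (limma, adjusted over 13899 genes). They come from the 5 largest differences in each direction among called genes with a mean of 5 FPKM or more in some group. The values are mutant change minus wild type change on the log2(FPKM + 1) scale. Sex runs with these differences and cannot be told apart from them.

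Above 0 were *Crym* (7.91), *Hal* (7.82), *Aldh1a7* (7.64), *Rspo4* (7.34) and *Kcnip4* (7.21). *Hal*, which encodes histidine ammonia-lyase, was at 0.2 and 0.41 FPKM at P30 and 15.6 and 23.1 at P56 in mutant and at 20.0 and 86.4 FPKM at P30 and 1.89 and 1.95 at P56 in wild type. *Kcnip4*, a potassium channel partner, was at 0.32 and 0.31 FPKM at P30 and 4.92 and 9.58 at P56 in mutant and 16.3 and 39.5 FPKM at P30 and 0 and 0.15 at P56 in wild type. *Rspo4* fell in wild type from 833 and 1195 to 7.56 and 63.5 FPKM. In each of these the wild type papilla was high at P30 and low at P56, and the mutant papilla was higher at P56 than at P30, though for *Rspo4* the mutant change was not called (adjusted p = 0.16). *Crym* is also on the list of hair matrix and shaft markers. Of the 19 genes of that list, 17 fell in wild type, and their part in these differences was not tested.

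Below 0 were *Gatm* (-7.55), *Npy* (-7.32), *Mbp* (-6.89) and *Dhh* (-6.74). *Gatm*, an enzyme of creatine synthesis, was at 1.02 and 0.09 FPKM at P30 and 217 and 122 at P56 in wild type and 2.50 and 3.75 FPKM at P30 and 0.99 and 1.90 at P56 in mutant. *Npy* (neuropeptide Y) was at 4.59 and 0.34 FPKM at P30 and 499 and 144 at P56 in wild type and 17.2 and 25.5 FPKM at P30 and 10.8 and 14.4 at P56 in mutant. *Mbp* encodes a myelin protein and *Dhh* a Hedgehog ligand of Schwann cells, and in wild type P56 they were at 225 and 189 and at 113 and 49.5 FPKM. None of these 4 was called in the mutant comparison. The Schwann cell marker *Sox10* was at 215 and 55.3 FPKM in wild type P56 and at 3.86 to 6.32 in the 4 mutant libraries, and its part in these differences was not tested.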

How the results depend on the processing

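Alternatives were pseudocounts of 0.1 and 0.5, no filter, a minimum of 5 FPKM, a fit on the 11874 genes alone, median ratio scaling, quantile normalization, a fit on the 4 libraries compared, no variance trend, robust variances, a replicate block and leaving out each library. The count of 679 called genes fell to 411 without the filter and ranged from 93 to 476 without 1 library. It stayed within 1.5 times under the rest (600 with the replicate block, 919 on the 4 libraries). For wild type (2361) the range without 1 library was 1737 to 2683, and for the difference between genotypes (1456) it was 421 to 1749, with 1456 under the block. The labels do not say whether replicate numbers pair samples. Deviations of same-numbered mutant P30 and P56 libraries correlated at 0.02 over genes, a description that cannot decide it. Of 102 named genes called in the mutant comparison, 76 stayed called without the filter, 99 under median ratio scaling, 95 under quantile normalization and 96 with the block. Without mutant P30 replicates 1 and 2, 35 and 40 stayed called, and without P56 replicates 1 and 2, 68 and 72. None changed sign under any alternative. Genes not called whose sign turned were *Bmp4* (quantile normalization, -0.184; without 1 library, -0.07 to 0.173), *Itgb1* (quantile normalization, -0.046), *Lef1* (without 1 library, -0.034 to 0.507), *Hba-a2* (-1.387 to 1.233), *Mcpt4* (-0.209 to 1.279), *Cma1* (-0.167 to 1.089) and *Hbb-bs* (pseudocounts of 0.1 and 0.5, -0.232 and -0.011; without 1 library, -1.483 to 1.728). The cause was not tested. Each group had 2 libraries, depth is unknown, and age and sex cannot be told apart.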

Other observations

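*Cartpt*, which encodes a neuropeptide precursor, was among the most variable genes of the papilla. It was at 3573 and 3463 FPKM in mutant P30, 9.73 and 1.3 in mutant P56, 8435 and 2.29 in wild type P30, and 0.46 and 2015 in wild type P56. The mutant difference of -9.47 was the largest of the 11874 genes and was not called (adjusted p = 0.159). It was singled out after its values were seen. *Ccl8*, a chemokine of the secreted factor list, was at 1.26 and 4.11 FPKM at P30 and 52.0 and 46.7 at P56 in mutant papilla (log2 difference 3.89 ± 1.12 (SE), adjusted p = 0.0743) and was not called either.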
